A study of Arabidopsis thaliana with 8 samples.

Results

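Aldehyde dehydrogenases (ALDHs) oxidise aldehydes to carboxylic acids with NAD or NADP as the acceptor, and they clear aldehydes made by amino acid breakdown, lignin precursor metabolism and lipid peroxidation. Plants carry many ALDH families, each with its own substrates and compartment, and several are known as stress-inducible genes. The genes described here are the 8 single-gene probe sets whose annotated symbol is ALDH followed by a family number: ALDH2C4, ALDH3F1, ALDH6B2, ALDH7B4, ALDH10A8, ALDH10A9, ALDH11A3 and ALDH22A1. The rule used the symbol and no measured value, although earlier results of these data were known when the family was picked. The 8 come out of 13513 single-gene probe sets and 22746 probe sets tested. They cover 8 of 16 genes of the Arabidopsis ALDH superfamily and 7 numbered families. The other 8 superfamily genes (ALDH2B4, ALDH2B7, ALDH3H1, ALDH3I1, ALDH5F1, ALDH12A1 and the proline synthesis genes P5CS1 and P5CS2) were not analysed here.

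Levels were compared over 8 Affymetrix arrays of sorted root cells from Arabidopsis thaliana, wild type of the Columbia background. The populations were cortex (n = 3 arrays), the ground tissue around the stele, phloem (n = 2 arrays), labelled as sieve cells and companion cells, and differentiating xylem (n = 3 arrays). All came from seedlings 6 days old grown at 22 degrees Celsius, whose root tips of about 1 cm were digested to protoplasts and sorted for green fluorescent protein. Every population therefore shared the enzyme digestion and the sort. The labels do not name the promoters that drove the fluorescent protein. Any effect of a reporter line cannot be told apart from that of the population it marked. The study sought an expression map of non-overlapping root cell types.

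The labels were set beside marker genes. These markers were chosen with earlier results of these data known, so their match to the labels is not an independent check. All 4 measured of 11 listed xylem markers were higher in xylem than in either other population. All 5 measured of 12 listed phloem markers were highest in phloem. Of the cortex markers, 4 of 5 measured were higher in cortex than in either other population. The cortex marker AT1G62500 was dim on every array. No marker was at an intensity of 0. Among cell types that were not sorted, the summed intensity of the 2 measured endodermis markers ran from 465 to 735 in cortex, 268 to 302 in phloem and 90 to 97.1 in xylem, and that order was set by GSO1, since the other gene, AT1G61590, was highest in phloem. GSO1 read 385.3 to 635.3 in cortex, 126.9 and 136.3 in phloem and 72.2 to 95.7 in xylem, the order of most ALDH genes below. The 2 measured root hair markers summed to 94.2 to 133 in cortex, 270 to 400 in phloem and 18.1 to 53 in xylem. Median intensity was lowest in xylem, at 41.2 to 42.7, against 61.4 to 62.4 in cortex and 70.3 to 73.6 in phloem. The 3'/5' intensity ratio of the GAPDH control probe sets, a sign of RNA integrity, was 1.21 to 1.49 in cortex, 1.77 to 2.15 in phloem and 1.53 to 2.63 in xylem. The ubiquitin ratio ran the other way, highest in cortex (2.66 to 2.81, against 2.09 to 2.46 in phloem and 1.70 to 2.10 in xylem), and the actin ratio of xylem (5.26 to 9.69) overlapped those of cortex (5.21 to 6.31) and phloem (7.48 to 8.64). The part of these shifts in the ALDH differences was not tested.

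By their deposited intensities, most of the ALDH genes were highest in cortex, intermediate in phloem and lowest in xylem. In 6 of 8 genes (ALDH2C4, ALDH7B4, ALDH22A1, ALDH10A8, ALDH10A9 and ALDH6B2) every cortex array lay above every phloem array and every phloem array above every xylem array. That order was found in 10.1% of all probe sets, dim ones included, and its share among brighter probe sets was not computed. ALDH3F1 was highest in phloem, and ALDH11A3 was near the bottom of the intensity scale everywhere. The differences below are from limma on log2(intensity + 16), so a difference of -1 is a halving on that scale, with an adjusted p threshold of 0.05 over all probe sets. Only 3 of 8 genes passed that threshold at every step of the order, against 4.29% of all probe sets. ALDH10A8 and ALDH10A9 did not pass between xylem and phloem, where median centring turned their differences to 0.05 and 0.07. ALDH6B2 did not pass between phloem and cortex. Arrays hold RNA pooled over sorted cells, so fewer expressing cells and less RNA per cell cannot be told apart.

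**Figure D1:**
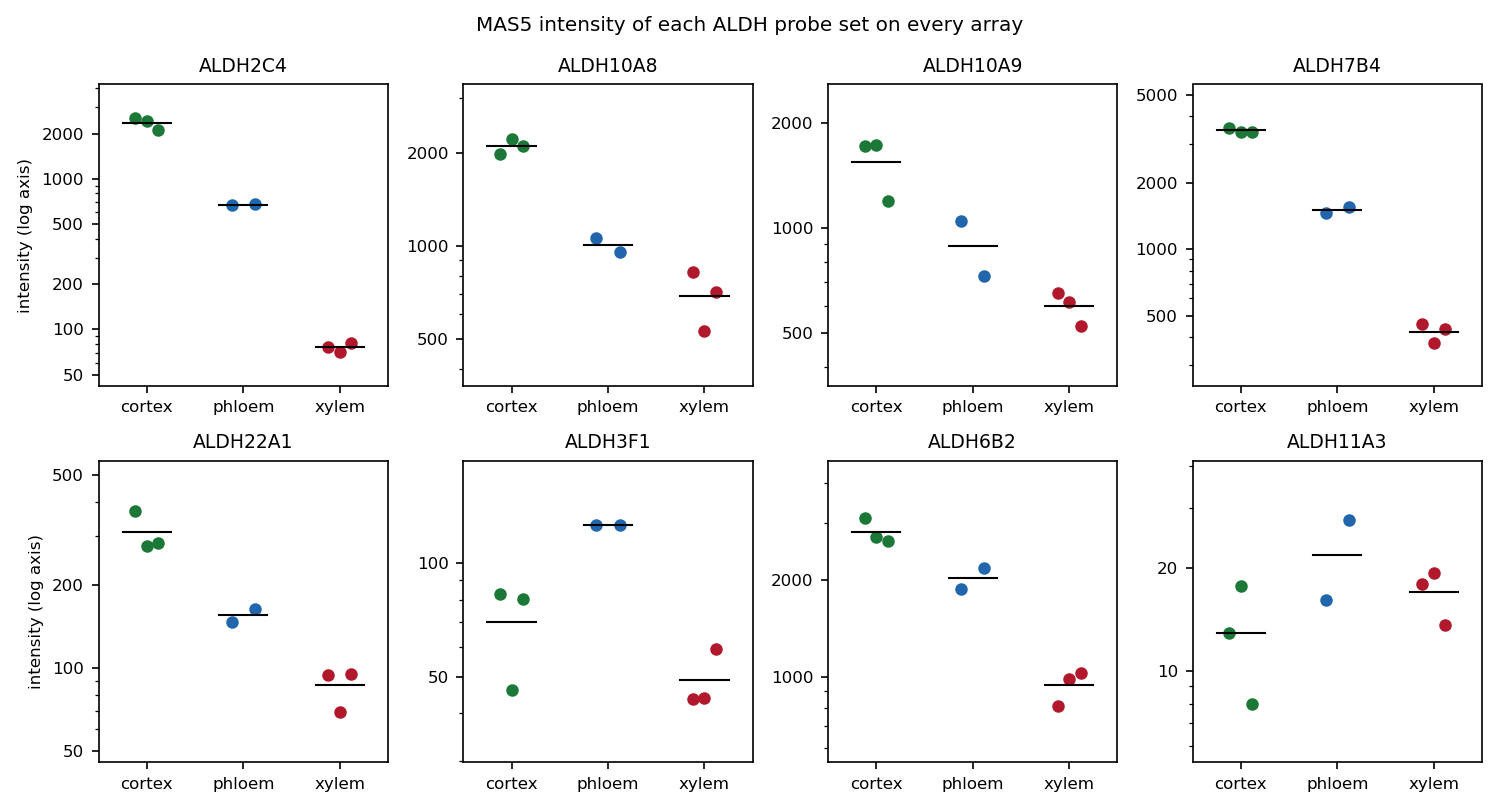
MAS5 intensity (log axis) of the 8 ALDH probe sets on each array of cortex (n = 3), phloem (n = 2) and xylem (n = 3); points are arrays and bars are population means. In 6 panels the populations step down from cortex to phloem to xylem without overlap, while ALDH3F1 is highest in phloem and ALDH11A3 overlaps between populations.

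Between xylem and cortex, 6 of 8 ALDH genes were lower in xylem and none was higher. Over all probe sets 29.1% were lower in xylem and 13.5% were higher. Among probe sets with a mean intensity of at least 50, adjusted on their own, 44.0% were lower in xylem, and 6 of 7 ALDH genes above that level. The median difference of the ALDH genes was -1.59, against -0.14 over all probe sets and -0.38 over those of at least 50. Between phloem and cortex, 5 of 8 were lower in phloem and none was higher, where 14.8% of all probe sets were lower and 12.2% higher, and 26.1% of those above an intensity of 50 were lower, with 5 of 7 ALDH genes. The median difference was -0.86, against -0.03 over all probe sets and -0.16 over those of at least 50. Between xylem and phloem, 5 of 8 were lower in xylem and none was higher, against 28.5% and 13.9% of all probe sets. Above an intensity of 50 the lower share was 41.1%, with 6 of 7 ALDH genes. The median was -0.92 against -0.15 over all probe sets and -0.34 over those of at least 50. The 3 comparisons share arrays.

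ALDH2C4 (AT3G24503, also known as REF1), which oxidises coniferaldehyde and sinapaldehyde to ferulic and sinapic acid in phenylpropanoid metabolism, had the largest differences of the 8 genes. Its intensity was 2532.9, 2424.1 and 2112.2 on the cortex arrays, 666.9 and 677.1 on the phloem arrays, and 76.1, 70.4 and 81.1 on the xylem arrays. The 3 populations were far apart and each was tight. The phloem mean was 28.5% of the cortex mean, and the xylem mean was 3.22%. On the log2 scale ALDH2C4 was lower in xylem than in cortex by 4.69 (difference -4.69, SE 0.14, adjusted p = 6.23e-08), and only 108 of 22746 probe sets had a lower value. Phloem differed from cortex by -1.78 (SE 0.15, adjusted p = 6.12e-05) and xylem from phloem by -2.91 (SE 0.15, adjusted p = 1.98e-06).

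Only 2 of 18 listed phenylpropanoid genes were measured, and they differed from each other. HCT (AT5G48930), which makes the hydroxycinnamoyl esters used on the route to lignin, ran opposite to ALDH2C4. It stood at 848.5, 844.3 and 657.1 in cortex, 1172.6 and 1730.7 in phloem, and 4027.6, 6257.9 and 3645.3 in xylem. In xylem HCT exceeded cortex by 2.51 on the log2 scale (SE 0.25, adjusted p = 4.84e-05) and phloem by 1.65 (SE 0.28, adjusted p = 0.00132). Its difference of 0.86 between phloem and cortex (adjusted p = 0.0483) passed, but not under 13 of 18 alternative settings, including every fit with 1 array left out except that without xylem replicate 2 (0.58 to 1.14). CCR2 (AT1G80820), a cinnamoyl-CoA reductase, was lower in xylem than in phloem, as ALDH2C4 was, but dim and scattered, from 3.1 to 53.3 in xylem, 32.2 to 142.3 in cortex and 103 to 166.3 in phloem. Its difference from cortex in xylem was -1.24 (95% interval -2.48 to -0.01, adjusted p = 0.0988), which passed without cortex replicate 1 (-1.70) or xylem replicate 3 (-1.67). The difference of CCR2 between xylem and phloem was -1.94 (adjusted p = 0.0298). That call was lost under 6 alternatives, among them the fits without phloem replicate 1 (-2.25), phloem replicate 2 (-1.63), xylem replicate 1 (-2.02) and xylem replicate 2 (-1.43).

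ALDH10A8 (AT1G74920) and ALDH10A9 (AT3G48170, annotated as betaine aldehyde dehydrogenase) belong to the family that oxidises aminoaldehydes, products of polyamine breakdown. ALDH10A8 stood at 1984.9, 2207.1 and 2098.0 in cortex, 1055.1 and 955.2 in phloem, and 821.8, 529.7 and 709.5 in xylem. The phloem mean was 47.9% and the xylem mean 32.8% of the cortex mean, with the lowest value on xylem replicate 2. ALDH10A8 was lower than in cortex by 1.61 in xylem (difference -1.61, SE 0.18, adjusted p = 0.000105) and by 1.05 in phloem (difference -1.05, SE 0.20, adjusted p = 0.00465). The step from phloem to xylem, -0.56 (95% interval -1.01 to -0.10, adjusted p = 0.051), did not pass, although the arrays did not overlap. It passed under 6 alternatives, among them quantile normalization and the fit without xylem replicate 1, and turned to 0.05 after median centring.

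ALDH10A9 followed with more scatter. Its intensities were 1720.4, 1735.8 and 1200.3 in cortex, 1046.3 and 729.1 in phloem, and 650.6, 616.0 and 525.8 in xylem. Cortex replicate 3 lay below the other cortex arrays, and the phloem arrays were apart as well. The xylem level of ALDH10A9 differed from cortex by -1.34 (SE 0.21, adjusted p = 0.000751). Its phloem level was also lower than in cortex, at -0.80 (SE 0.23, adjusted p = 0.0321), but that call was lost after quantile normalization (-0.63) and without phloem replicate 2 (-0.54), cortex replicate 1 or cortex replicate 2 (-0.71 each). Xylem differed from phloem by -0.54 (95% interval -1.07 to -0.02, adjusted p = 0.0925), and after spike-in scaling by -0.87 (adjusted p = 0.0157). Within arrays, the log2 ratio of ALDH10A9 to ALDH10A8 differed by 0.27 between xylem and cortex (p = 0.5 in a 2-sided exact permutation test, where 0.1 is the smallest possible) and by 0.25 between phloem and cortex (exact p = 0.6, smallest possible 0.2). The ratios overlapped between populations, so no difference between these family members was detectable with so few arrays.

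ALDH7B4 (AT1G54100), the plant antiquitin-type ALDH and a known responder to dehydration and salt, had the next largest difference after ALDH2C4. It stood at 3548.4, 3404.9 and 3392.4 in cortex, 1463.5 and 1550.3 in phloem, and 461.7, 377.8 and 434.6 in xylem. The phloem mean was 43.7% of the cortex mean and the xylem mean was 12.3%. The difference from cortex was -2.98 in xylem (SE 0.14, adjusted p = 5.38e-07) and -1.19 in phloem (SE 0.15, adjusted p = 0.000601). Xylem differed from phloem by -1.79 (SE 0.15, adjusted p = 3.09e-05). ALDH2C4, ALDH7B4 and ALDH10A8 were at least 2-fold higher in cortex than in each other population, a pattern met by 6.31% of all probe sets, dim ones included. ALDH10A8 met it narrowly, at -1.05 between phloem and cortex. It fell short after quantile normalization (-0.90), trimmed-mean scaling (-0.92) and without phloem replicate 2 (-0.98).

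ALDH22A1 (AT3G66658), the Arabidopsis member of a plant family without an established substrate, had the same order at lower intensity. The cortex arrays read 369.2, 276.4 and 283.5, the phloem arrays 147.1 and 163.1, and the xylem arrays 94.7, 69.3 and 95.5. Population means in phloem and xylem were 50.1% and 27.9% of the cortex mean. Xylem differed from cortex by -1.67 (SE 0.19, adjusted p = 0.000109). The differences of phloem from cortex, -0.92 (SE 0.21, adjusted p = 0.0109), and of xylem from phloem, -0.75 (SE 0.21, adjusted p = 0.0182), were smaller. Neither passed when phloem replicate 1 (-0.85 and -0.82) or phloem replicate 2 (-0.99 and -0.68) was left out. The step from phloem to xylem was also lost after quantile normalization (-0.19) and median centring (-0.14). With ALDH2C4 and ALDH7B4, ALDH22A1 was 1 of 3 genes that passed in every comparison as cortex over phloem over xylem. That pattern was met by 4.29% of all probe sets, dim ones included.

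ALDH3F1 (AT4G36250), of the class that acts on fatty and other lipid-derived aldehydes, departed from this order. Its intensity was 126.2 and 126.3 on the phloem arrays, 83.0, 46.1 and 80.4 on the cortex arrays, and 43.8, 43.9 and 59.1 on the xylem arrays. Both phloem arrays lay above all others, and cortex and xylem overlapped because cortex replicate 2 read low. Xylem lay below phloem for ALDH3F1, at -1.14 (SE 0.26, adjusted p = 0.00671), a call lost after quantile normalization (-0.55) and median centring (-0.53). The difference of phloem from cortex was 0.76 (95% interval 0.17 to 1.35, adjusted p = 0.0602). It passed under 4 alternatives, among them the filter on dim probe sets (adjusted p = 0.0316) and trimmed-mean scaling (0.86). Xylem differed from cortex by -0.38 (95% interval -0.91 to 0.15, adjusted p = 0.231), and after spike-in scaling by -1.09 (adjusted p = 0.00417). Of the markers of unsorted cell types, both root hair genes and the endodermis gene AT1G61590 had their highest mean in phloem too, and their part in this result was not tested.

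**Figure D2:**
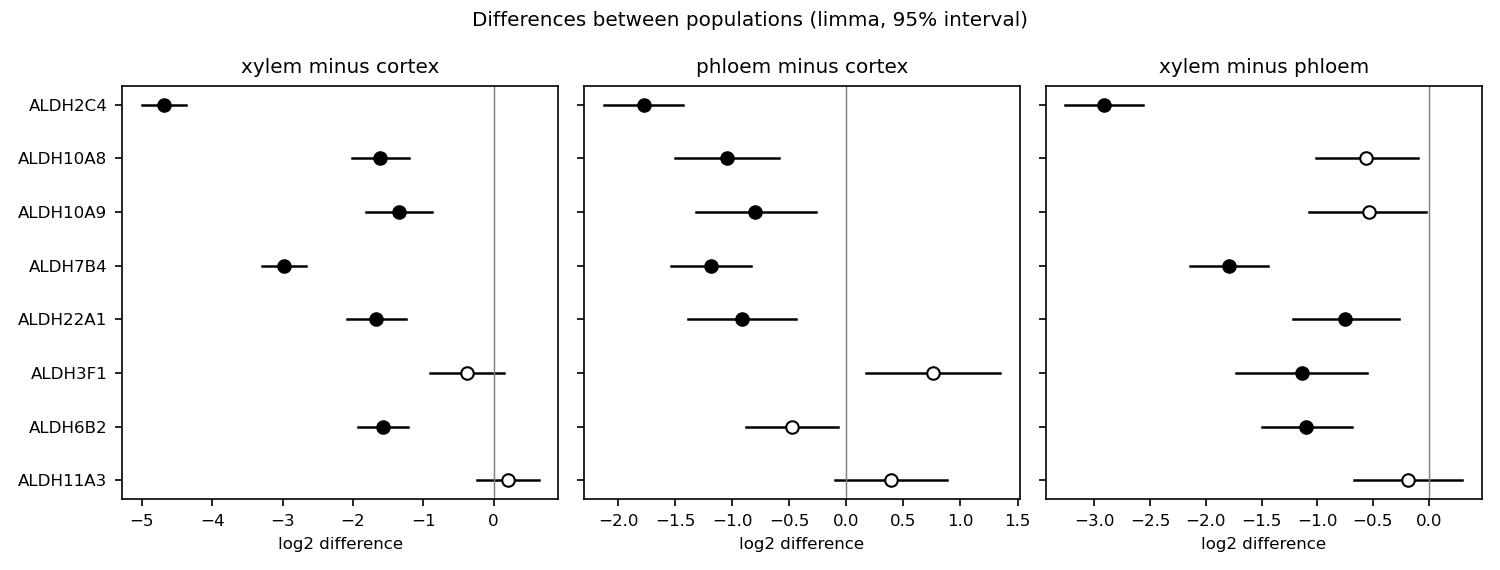
Log2 differences between populations for the 8 ALDH genes, on the log2(intensity + 16) scale, with 95% intervals from limma; filled points passed the adjusted threshold of 0.05 and open points did not. ALDH2C4 lies at -4.69 for xylem minus cortex, ALDH7B4 at -2.98, and 4 more genes lie between -1.67 and -1.34.

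ALDH6B2 (AT2G14170), the mitochondrial methylmalonate semialdehyde dehydrogenase of valine breakdown, differed mainly in xylem. It stood at 3115.0, 2710.4 and 2628.2 in cortex, 1870.7 and 2173.6 in phloem, and 810.5, 979.5 and 1028.7 in xylem. The xylem mean was 33.3% of the cortex mean and 46.5% of the phloem mean. Xylem differed from cortex by -1.57 (SE 0.16, adjusted p = 5.79e-05) and from phloem by -1.10 (SE 0.18, adjusted p = 0.00112). The difference of phloem from cortex, -0.48 (95% interval -0.88 to -0.07, adjusted p = 0.0827), did not pass, although every phloem array was below every cortex array. It passed after median centring (-0.65) and spike-in scaling (-1.05).

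Of 12 listed genes of branched-chain amino acid breakdown, 5 were measured, and 3 were lower in xylem than in cortex while 1 was higher, where 29.1% and 13.5% of all probe sets were, and 44.0% of those above an intensity of 50 were lower. IVD (AT3G45300), the isovaleryl-CoA dehydrogenase of leucine breakdown, read 874.3, 1030.8 and 929.3 in cortex, 376.1 and 449.4 in phloem, and 90.5, 126.6 and 101.5 in xylem. Its differences from cortex were -2.98 in xylem (SE 0.17, adjusted p = 1.54e-06) and -1.17 in phloem (SE 0.18, adjusted p = 0.00179). AT5G09300 was lower than in cortex in xylem (-1.18, adjusted p = 0.000674) and in phloem (95% interval -1.46 to -0.55, adjusted p = 0.00566), the latter lost without phloem replicate 2 (-0.88). MCCA (AT1G03090) and MCCB (AT4G34030), the biotin-bearing and the other subunit of methylcrotonyl-CoA carboxylase, differed in direction. MCCA stood at 226.6, 309.7 and 431.0 in cortex, 201.1 and 258.9 in phloem, and 1798.3, 1527.3 and 1690.3 in xylem, higher than in cortex by 2.36 (SE 0.23, adjusted p = 4.29e-05). MCCB fell in xylem relative to cortex, at -0.68 (SE 0.18, adjusted p = 0.0134), a call lost under 4 alternatives, among them the fit without cortex replicate 3 (-0.59). AT4G20930 was dim, at 20.3 to 53.9, and passed in no comparison as fitted here. Its difference of -0.64 between xylem and cortex (adjusted p = 0.0664) passed under 5 alternatives, among them spike-in scaling (-1.27). Spike-in scaling also made its difference between phloem and cortex pass (-0.81).

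ALDH11A3 (AT2G24270), the cytosolic non-phosphorylating glyceraldehyde phosphate dehydrogenase, was dim in every population. Its intensity was 12.9, 17.7 and 8.0 in cortex, 16.1 and 27.7 in phloem, and 18, 19.4 and 13.6 in xylem, close to the added 16. The populations overlapped. Its differences were 0.20 between xylem and cortex (95% interval -0.23 to 0.64), 0.39 between phloem and cortex (-0.10 to 0.88) and -0.19 between xylem and phloem (-0.67 to 0.30), and none passed (adjusted p = 0.447, 0.232 and 0.536). After median centring xylem exceeded cortex by 0.64 (adjusted p = 0.0244). The table holds no detection calls, so such intensities are not shown to exceed background. Of 7 listed phosphorylating glyceraldehyde phosphate dehydrogenases only the glycolytic GAPC2 (AT1G13440) was measured. GAPC2 read 5812.3 to 6174.0 in cortex, 6438.2 and 7093.2 in phloem, and 3290.9 to 4016.8 in xylem. It was lower in xylem than in cortex by 0.69 (difference -0.69, adjusted p = 0.00678) and than in phloem by 0.86 (difference -0.86, adjusted p = 0.00381), each call lost after median centring (-0.25 and -0.26).

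Other pathways that make or use aldehydes were covered thinly. In ethanolic fermentation and the bypass of pyruvate dehydrogenase, 2 of 6 listed genes were measured and both were lower in xylem than in cortex and than in phloem, where 44.0% of probe sets above an intensity of 50 were lower in xylem than in cortex and 41.1% lower than in phloem. PDC2 (AT5G54960), a pyruvate decarboxylase that makes acetaldehyde, read 459.2, 594.5 and 461.9 in cortex, 709.9 and 685.6 in phloem, and 215.3, 93.8 and 166.6 in xylem, with differences of xylem from cortex of -1.63 (adjusted p = 0.000948) and from phloem of -2.10 (adjusted p = 0.000493). ACS (AT5G36880), the acetyl-CoA synthetase that takes up the acetate an ALDH can form, differed between xylem and cortex by -1.76 (adjusted p = 0.000391). Its difference of -1.21 between xylem and phloem (adjusted p = 0.00634) was lost after median centring (-0.60) and without phloem replicate 1 (-1.15). Between phloem and cortex neither gene passed as fitted here, at 0.46 for PDC2 and -0.55 for ACS. There PDC2 passed under 1 alternative, quantile normalization (0.71), and ACS under 3, among them spike-in scaling (-1.12). Xylem replicate 2 was the lowest array for PDC2 and ACS. It had the highest GAPDH and actin 3'/5' ratios, 2.63 and 9.69, and the lowest trimmed mean intensity, 190.97. It was the lowest xylem array for ALDH2C4, ALDH7B4, ALDH10A8 and ALDH22A1 as well. For ALDH6B2 and ALDH10A9 it was not the lowest, and for HCT it was the highest, at 6257.9. The part of these array traits in the values was not tested. Without xylem replicate 2 the 6 ALDH genes lower in xylem than in cortex still passed, from -1.36 for ALDH10A9 to -4.64 for ALDH2C4.

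In proline metabolism 2 of 6 listed genes were measured, and they differed in opposite directions from cortex. DELTA-OAT (AT5G46180), ornithine aminotransferase, stood at 250.7, 205.6 and 293.6 in cortex, 922.6 and 672.8 in phloem, and 488.8, 471.3 and 417.0 in xylem. It was higher than in cortex by 1.61 in phloem (SE 0.21, adjusted p = 0.000559) and by 0.85 in xylem (adjusted p = 0.00521), the latter lost after spike-in scaling, where it came to -0.03. AT5G38710 was lower than in cortex in xylem (-2.47, adjusted p = 0.00409) and in phloem (-2.03, adjusted p = 0.0292, lost under 5 alternatives). The phloem call of AT5G38710 was lost without phloem replicate 1 (-2.10), phloem replicate 2 (-1.96), cortex replicate 2 (-2.04) or cortex replicate 3 (-1.47). Its cortex arrays were spread widely, at 92.4, 212.9 and 491.4. Among 4 measured of 12 listed genes for other reactive aldehydes, 3 were lower in xylem than in cortex, against 29.1% of all probe sets and 44.0% of those above an intensity of 50: GLX2-1 (AT2G43430), a glyoxalase II family gene, at -0.74 (adjusted p = 0.00258, lost under 2 alternatives), AT1G08110 at -1.36 (adjusted p = 0.000648), and AOR (AT1G23740), an alkenal reductase, at -0.90 (adjusted p = 0.0407). The call of AOR was lost under 11 alternatives, among them every fit with 1 array left out except those without cortex replicate 3 and xylem replicate 3, at -0.59 to -0.92. AER (AT5G16970), also an alkenal reductase, differed by -0.19 (95% interval -0.66 to 0.27, adjusted p = 0.503). None of the 4 passed between phloem and cortex as fitted here. There GLX2-1 passed under 3 alternatives, AOR under 2 and AT1G08110 under 1. AT1G11860, the only measured gene of 5 on the photorespiration list, differed between xylem and cortex by -0.83 (adjusted p = 0.0172), a call lost under 7 alternatives, among them the fits without cortex replicates 1 (-0.69) and 2 (-0.74) and xylem replicates 1 (-0.74) and 3 (-0.77). No gene of the GABA shunt list was measured.

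**Figure D3:**
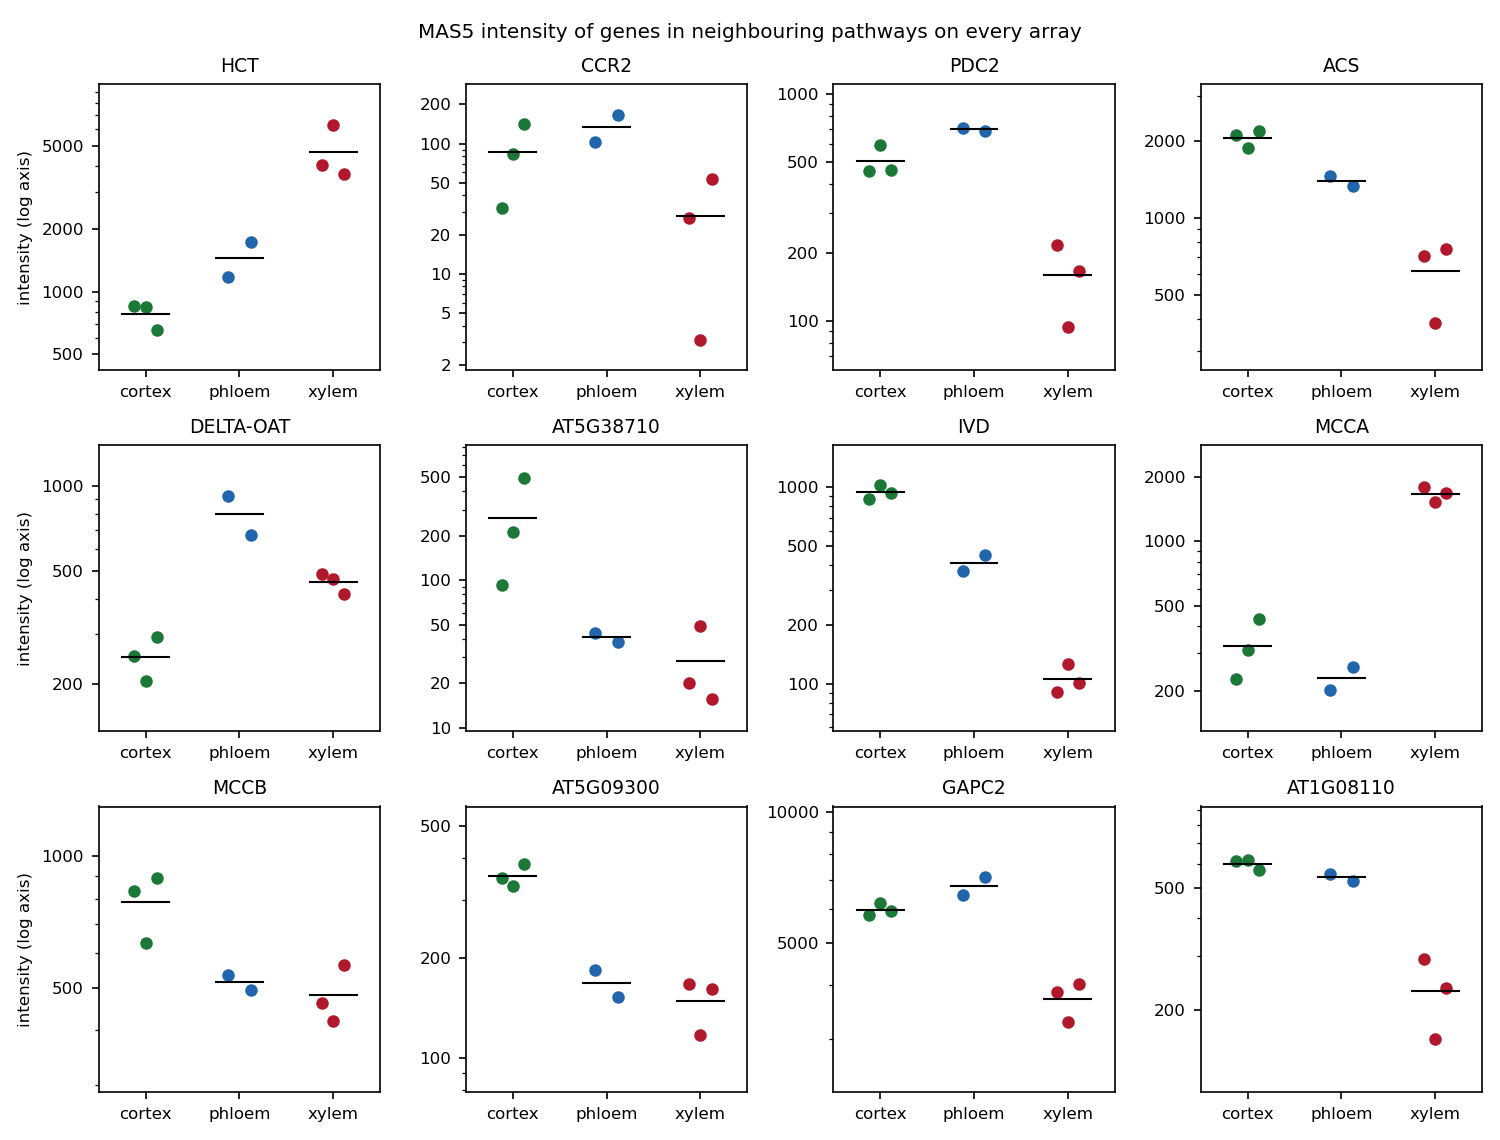
MAS5 intensity (log axis) of 12 genes from the pathway lists on each array; points are arrays and bars are population means. HCT and MCCA are highest in xylem, DELTA-OAT is highest in phloem, and IVD steps down from cortex to phloem to xylem as most ALDH genes do.

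The ALDH genes were also set against each other by their difference between xylem and cortex. Because array scaling cancels in a ratio of probe sets on the same array, apart from the added 16, neighbours in the order of that difference were described by their log2 ratio within arrays. The sign of each ratio difference follows from that order, so no test is given. The ratio of ALDH2C4 to ALDH7B4 was 1.71 lower in xylem than in cortex (difference -1.71), with -2.26 ± 0.10 (SD, n = 3) in xylem and -0.55 ± 0.11 (n = 3) in cortex. The ratio of ALDH7B4 to ALDH22A1 differed by -1.31 and that of ALDH10A9 to ALDH3F1 by -0.96. In these 3 ratios the arrays of xylem and cortex did not overlap. Between ALDH22A1, ALDH10A8, ALDH6B2 and ALDH10A9 the ratios differed by -0.06, -0.04 and -0.23 and overlapped, so their order is not resolved. ALDH3F1 against ALDH11A3 differed by -0.58 and overlapped.

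Deposited values of different populations need not be on 1 common scale, so the differences were also taken relative to the median of all probe sets under each of 4 other scalings. For xylem against cortex that median was -0.14 in the deposited values, and it came to 0.04 with quantile normalization, 0.29 with median centring, -0.03 with trimmed-mean scaling and -0.72 with spike-in scaling. Relative to it, ALDH2C4 lay between -4.80 and -4.32, ALDH7B4 between -3.16 and -2.74, ALDH10A8 between -1.79 and -1.37, ALDH6B2 between -1.76 and -1.33, ALDH22A1 between -1.77 and -1.17 and ALDH10A9 between -1.52 and -1.10. The value of ALDH3F1 ran from -0.38 to 0.05 and so had no settled sign, and that of ALDH11A3 from 0.34 to 0.49. Median centring, trimmed-mean scaling and spike-in scaling apply a factor per array, which shifts a gene and the median of all probe sets alike. Apart from the constant added before the log, such a shift cancels, so only quantile normalization could otherwise change these values. The ranges therefore do not show whether the populations share a common scale.

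**Figure D4:**
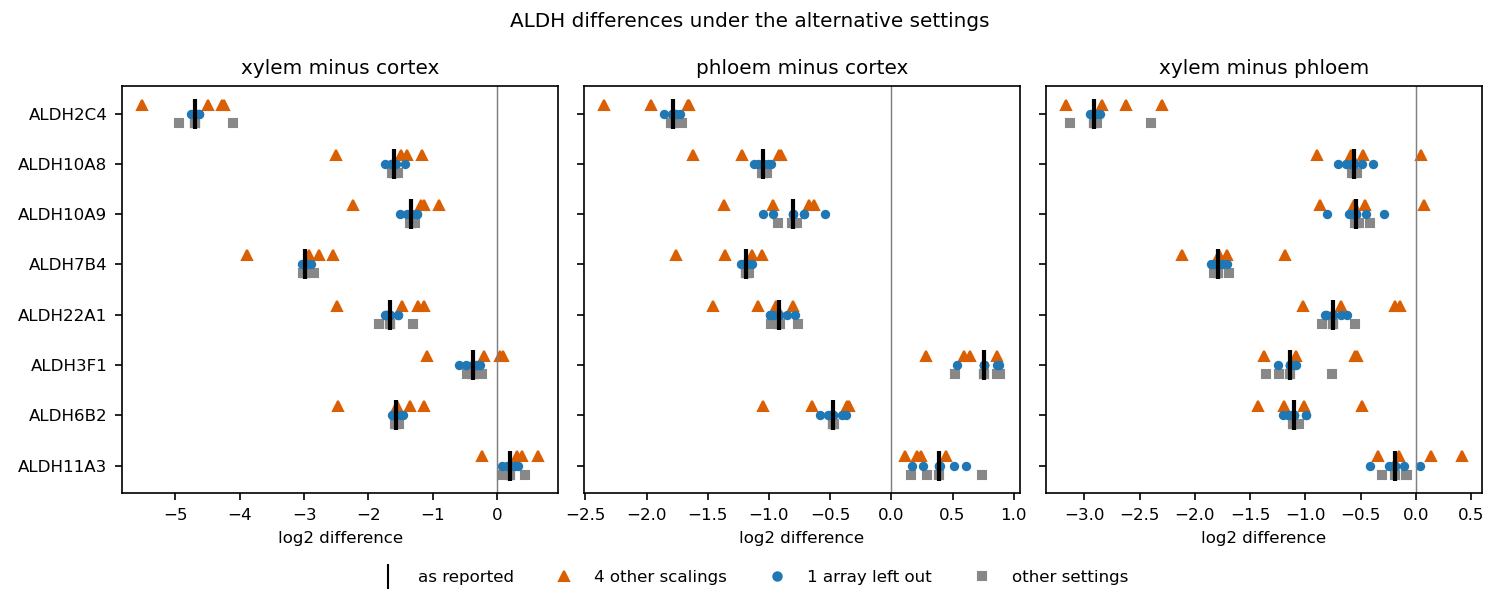
Log2 differences of the 8 ALDH genes as reported (black bars), under 4 other scalings (triangles), with 1 array left out (circles) and under other settings (squares). ALDH2C4 stays between -5.52 and -4.11 for xylem minus cortex, while ALDH10A8 and ALDH10A9 reach 0.05 and 0.07 for xylem minus phloem after median centring.

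The genes with the most similar pattern were sought among 1572 single-gene probe sets with a symbol, by the smallest root mean square difference of centred log2 values over the 8 arrays. Since the arrays form 3 populations, these likenesses rest on few independent points. Nearest to ALDH2C4 was the copper amine oxidase CuAO1 (AT1G62810), at 0.16 (r = 0.997), followed by the glutathione S-transferase GSTU27 (AT3G43800) at 0.26. CuAO1 differed between xylem and cortex by -4.61 and between phloem and cortex by -1.80. Nearest to ALDH7B4 were ATMDAR2 (AT5G03630), a monodehydroascorbate reductase, at 0.13 (r = 0.997), and the farnesol dehydrogenase FLDH (AT4G33360) at 0.15. ALDH22A1 and ALDH6B2 shared PGRL1B (AT4G11960) as nearest gene, at 0.13 and 0.15, and the next were GLY2 (AT3G10850), a glyoxalase II, at 0.15 for ALDH22A1 and the tripeptidyl peptidase TPP2 (AT4G20850) at 0.16 for ALDH6B2. ALDH10A8 was nearest to PRA8 (AT3G13720) at 0.15 and AR791 (AT1G52080) at 0.16, and ALDH10A9 to the plastid division gene FTSZ2-2 (AT3G52750) at 0.17 and the clock gene GI (AT1G22770) at 0.18. ALDH3F1 was nearest to XERICO (AT2G04240) at 0.16 and the beta glucosidase BGLU24 (AT5G28510) at 0.17.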

How the data were processed

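The deposited table holds linear array intensities, 1 per probe set and array, made by the authors with MAS5, per the submitters' processing notes; its version and target value are not stated in the labels. All 8 sample columns were used. Precision is limited by the number of arrays. Of 22810 probe sets, 64 controls were left out of the tests. Names came from the platform annotation, updated through RefSeq (TAIR10.1), which matched all 8 ALDH genes; none of these probe sets has the suffix of a cross-hybridising design. No coordinates are given, since no build is stated.

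Values were transformed as log2(intensity + 16) without normalization and fitted in limma 3.58.1 (R 4.3.3) with 1 mean per population over all 8 arrays and an intensity trend. Residual degrees of freedom were 5, and moderation added 3.66. P-values were adjusted by Benjamini-Hochberg over 22746 probe sets within each comparison. The fit was tested on simulated data. The ALDH genes, pathway lists, markers and the rule for similar patterns were chosen with earlier results of these data known. Where a gene has several probe sets, the brightest was used. The labels call arrays of a population biological replicates without naming separate cultures, so p-values measure the spread between these arrays. Same-numbered arrays of different populations were not paired: their deviations correlated at -0.10 to 0.15.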

Additional observations from a re-analysis of the deposited data

How the results depend on the processing

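Each of the 24 ALDH differences was recomputed under up to 18 alternatives: pseudocounts of 1 and 64, 4 scalings, a filter at a mean intensity of 50 (which removes ALDH11A3), no intensity trend, only the arrays compared, the replicate number as a block, and each array left out. The filter, the missing trend, the fit of only the arrays compared and the loss of an array outside the comparison leave the log2 difference unchanged. They alter only its spread or adjustment, so the 18 are not independent checks. Of 16 differences that passed, 12 passed in the same direction under all 18, and 4 lost the call under at least 1: ALDH10A9 and ALDH22A1 between phloem and cortex, and ALDH22A1 and ALDH3F1 between xylem and phloem. Signs turned only among the 8 that had not passed. Of those 8, 6 passed under at least 1 alternative. ALDH3F1 between xylem and cortex came to 0.09 after quantile normalization and 0.05 after median centring, and ALDH11A3 to -0.23 after spike-in scaling. Between xylem and phloem, median centring gave 0.05 for ALDH10A8, 0.07 for ALDH10A9 and 0.42 for ALDH11A3, which came to 0.14 after quantile normalization and, with 1 array left out, ran from -0.41 to 0.04, the latter without phloem replicate 2. The cause was not tested.

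The number of ALDH genes called with 1 array left out was 6 for xylem against cortex, 3 to 5 for phloem against cortex (3 without phloem replicate 2, where the lone phloem array is assumed to vary like the others) and 4 to 6 for xylem against phloem, where median centring left 3. With the replicate block the numbers called were 6, 5 and 5, as without it. Among the pathway genes the block ended the calls of AT5G38710 between phloem and cortex (-1.85, adjusted p = 0.0616) and of AOR between xylem and cortex (-0.90, adjusted p = 0.0575), and CCR2 between xylem and cortex (-1.24, adjusted p = 0.0488) and AT1G11860 between phloem and cortex (-0.82, adjusted p = 0.0477) passed with it. Over all probe sets, leaving 1 array out gave 8209 to 9921 calls for xylem against cortex, 3606 to 7489 for phloem against cortex, against 6140 with all arrays, and 7101 to 10204 for xylem against phloem. The replicate block gave 9557, 5579 and 9114. Spike-in scaling gave 9363 for phloem against cortex. The share of calls that were higher moved with the scaling. For xylem against cortex it was 31.7% in the deposited values, 48.9% with quantile normalization, 63.8% with median centring and 10.4% with spike-in scaling. For phloem against cortex it was 45.3%, 33.1% with median centring and 20.4% with spike-in scaling. For xylem against phloem it was 32.8%, 52.1% with quantile normalization, 71.2% with median centring and 21.1% with spike-in scaling.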
